A study of Mus musculus with 4 samples.

Results

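The paraxial mesoderm genes *Tcf15*, *Meox1*, *Foxc1*, *Foxc2*, *Pcdh8* and *Pcdh19* were followed as 6 of the 19616 genes counted over 3 single-cell libraries of the gastrulating mouse embryo. The rule names them as genes of the mesoderm that flanks the midline and uses no count, but it was written with earlier results of these data known. All 6 were listed at the mid to late streak stage (MS-LS) and at the early headfold stage (EHF), and 5 at the no bud to early bud interval (OB-EB), whose table does not list *Meox1*. Embryos of the 3 stages carried *T*nEGP-CreERT2/+ with *R26R*tdtomato/*R26R*tdtomato, in which a tamoxifen-dependent Cre is made from the *T* locus, so that the tdTomato reporter marks cells that made *T* while tamoxifen was active, and their descendants. Tamoxifen was given by oral gavage at 0.08 mg/bw, at E6+5h for the MS-LS embryos collected at E6+21h, at E6+21h for the OB-EB embryos collected at E7+3h, and at E7+7h for the EHF embryos collected at E7+14h. Whole embryos were pooled into 1 library per stage, with no untreated library, so stage, tamoxifen time and library cannot be told apart and no test between stages was made.

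Paraxial mesoderm arises from the primitive streak, passes through the presomitic mesoderm, and is cut into somites at its anterior end, while its cranial part stays unsegmented. *Tcf15* (paraxis) is a basic helix-loop-helix factor needed for somites to become epithelial, *Meox1* is a homeobox factor of somite differentiation, and *Foxc1* and *Foxc2* are closely related forkhead factors that act redundantly in paraxial mesoderm and somite formation. *Pcdh8* (paraxial protocadherin, PAPC) and *Pcdh19* are delta protocadherins, cell adhesion molecules of the segmenting mesoderm.

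In GRCm38, *Tcf15* lies on the plus strand at chr2:152143561-152149097 and *Meox1* on the minus strand at chr11:101877510-101894374. *Foxc1* lies on the plus strand at chr13:31806633-31812476 and *Foxc2* on the plus strand at chr8:121116171-121118895. *Pcdh8* lies on the minus strand at chr14:79766775-79771312 and *Pcdh19* on the minus strand at chrX:133582860-133688987. The assay reads the 3′ end of transcripts, so values are counts of 3′ ends assigned to a gene and not of its full length. *Foxc2* lies inside the annotated gene *Gm20388* on the same strand, and *Meox1*, *Pcdh8* and *Pcdh19* each overlap a gene on the opposite strand (*Gm11551*, *Gm9748* and *Gm26851*). How reads shared with these genes or between the *Foxc* paralogs were assigned was not tested.

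The 250 bases before the start of *Foxc1*, *Pcdh8* and *Pcdh19* are shown, since RefSeq's promoter table for GRCm38.p6 matched these 3 of the 6 genes, while *Tcf15*, *Meox1* and *Foxc2* are named only. The starts are those of RefSeq and can differ by some bases from the gene ends given above. Each sequence runs 5′ to 3′ on the strand of its gene, and the capitals mark the match to CCAAT, which reads ATTGG where it lies on the other strand. The windows are chr13:31806396-31806645 for *Foxc1*, chr14:79771313-79771562 (minus strand) for *Pcdh8* and chrX:133688994-133689243 (minus strand) for *Pcdh19*.
Foxc1: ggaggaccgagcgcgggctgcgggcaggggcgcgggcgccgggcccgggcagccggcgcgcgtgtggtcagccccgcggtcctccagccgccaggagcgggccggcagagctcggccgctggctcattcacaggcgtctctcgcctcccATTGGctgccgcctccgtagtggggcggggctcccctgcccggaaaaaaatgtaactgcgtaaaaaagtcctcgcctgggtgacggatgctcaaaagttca
Pcdh8: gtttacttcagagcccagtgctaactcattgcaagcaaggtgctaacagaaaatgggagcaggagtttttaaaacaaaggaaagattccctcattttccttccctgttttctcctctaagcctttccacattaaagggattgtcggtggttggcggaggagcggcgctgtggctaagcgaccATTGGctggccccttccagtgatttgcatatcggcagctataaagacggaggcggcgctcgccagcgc
Pcdh19: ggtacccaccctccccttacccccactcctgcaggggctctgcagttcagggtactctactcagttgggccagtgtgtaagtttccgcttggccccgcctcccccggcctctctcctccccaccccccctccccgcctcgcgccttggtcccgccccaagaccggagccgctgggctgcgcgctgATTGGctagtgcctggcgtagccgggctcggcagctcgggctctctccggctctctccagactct

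Each window held 1 CCAAT on either strand, with its first base 101, 68 and 65 bases before the start of *Foxc1*, *Pcdh8* and *Pcdh19*, and in each it was part of the longer run AGCCAAT. Of 27025 promoter windows of the same length, 34.5% held CCAAT and 7.6% held AGCCAAT. These letters were looked for after the sequences had been seen. TATAAA, held by 13.0% of the windows, was present in that of *Pcdh8*, 30 bases before the start. An E-box (CANNTG), held by 66.0% of the windows, was present once for *Pcdh19* and not for the others, and the T-box core AGGTGT, held by 12%, was in none of the 3. The *Foxc1*, *Pcdh8* and *Pcdh19* windows held 29, 11 and 16 CG dinucleotides, against a median of 6, and were 70.8%, 51.2% and 69.2% G and C. A match is a run of letters and was not measured as a bound site.

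The libraries held 3635 (MS-LS), 3994 (OB-EB) and 3494 cells (EHF), with 17966956, 12181436 and 20376539 unique molecular identifiers (UMIs, each a captured transcript) and a median of 4251, 2620.5 and 5584 UMIs per cell. Levels are counts per 1e6 UMIs of a library or class (CPM), with exact Poisson 95% intervals in parentheses. Shares are of cells with at least 1 UMI. Both intervals cover counting error only. Between 12 and 18 cell barcodes were shared by each pair of libraries. Cell classes came from clusters made and named without the 6 genes, and are written "-like". Levels of different genes were not compared, since they were not corrected for capture along the transcript.

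At the level of whole libraries the 6 genes were sparse. *Tcf15* had 146 UMIs (8.13 CPM) at MS-LS, 63 (5.17 CPM) at OB-EB and 637 (31.3 CPM) at EHF, where 7.79% of cells had a UMI and 1 cell held 12. *Meox1* had 7 UMIs (0.390 CPM, 0.157 to 0.803) at MS-LS and 242 (11.9 CPM) at EHF. *Meox1* was thus close to the lowest measurable level at the streak stage. *Foxc1* had 56, 180 and 290 UMIs (3.12, 14.8 and 14.2 CPM) in order of stage, and *Foxc2* had 26, 80 and 191 (1.45, 6.57 and 9.37 CPM). *Pcdh8* had 90, 171 and 79 UMIs (5.01, 14.0 and 3.88 CPM), with its highest level at OB-EB. *Pcdh19* had 90, 238 and 695 UMIs (5.01, 19.5 and 34.1 CPM), with its highest level at EHF.

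The extra-embryonic ectoderm and endoderm classes take different shares of the libraries, so the stages were also compared without them. The remaining classes, called embryonic here, still held extra-embryonic mesoderm, blood and unnamed clusters. Among the latter were 258 MS-LS cells that scored for definitive and extra-embryonic endoderm alike. *Meox1* was higher in the embryonic classes of EHF than in those of MS-LS, at 16.3 against 0.560 CPM, a log2 ratio of 4.87 (3.80 to 6.20). *Tcf15* was lower at OB-EB than at MS-LS, at 5.88 against 9.59 CPM (log2 ratio −0.71, −1.18 to −0.25), and higher at EHF than at OB-EB, at 41.4 CPM (2.82, 2.43 to 3.23). The *Foxc* genes and both protocadherins were instead higher at OB-EB than at MS-LS.

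For *Foxc1* the log2 ratio of OB-EB over MS-LS was 2.01 (1.57 to 2.48), from 4.32 to 17.4 CPM, and that of EHF over OB-EB was 0.18 (−0.09 to 0.46), an interval that holds 0. *Foxc2* gave 1.98 (1.31 to 2.69) and then 0.71 (0.33 to 1.11). *Pcdh19* was higher at each later stage, by 1.78 (1.42 to 2.16) and then 1.02 (0.80 to 1.24). *Pcdh8* was higher at OB-EB than at MS-LS by 1.19 (0.81 to 1.58) and lower at EHF than at OB-EB, with a log2 ratio of −1.58 (−1.99 to −1.19). It was the only one of the 5 genes listed at all stages whose interval for EHF against OB-EB lay below 0. These levels pool many classes, and the cells that held *Pcdh8* took different shares of the libraries. Nascent mesoderm-like cells were 26.2% of OB-EB cells, with *Pcdh8* at 38.6 CPM. At EHF paraxial and presomitic mesoderm-like cells were 2.55% and 4.12% of cells, at 63.1 and 29.3 CPM. The pooled ratio therefore does not give a change within mesoderm classes.

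**Figure D1:**
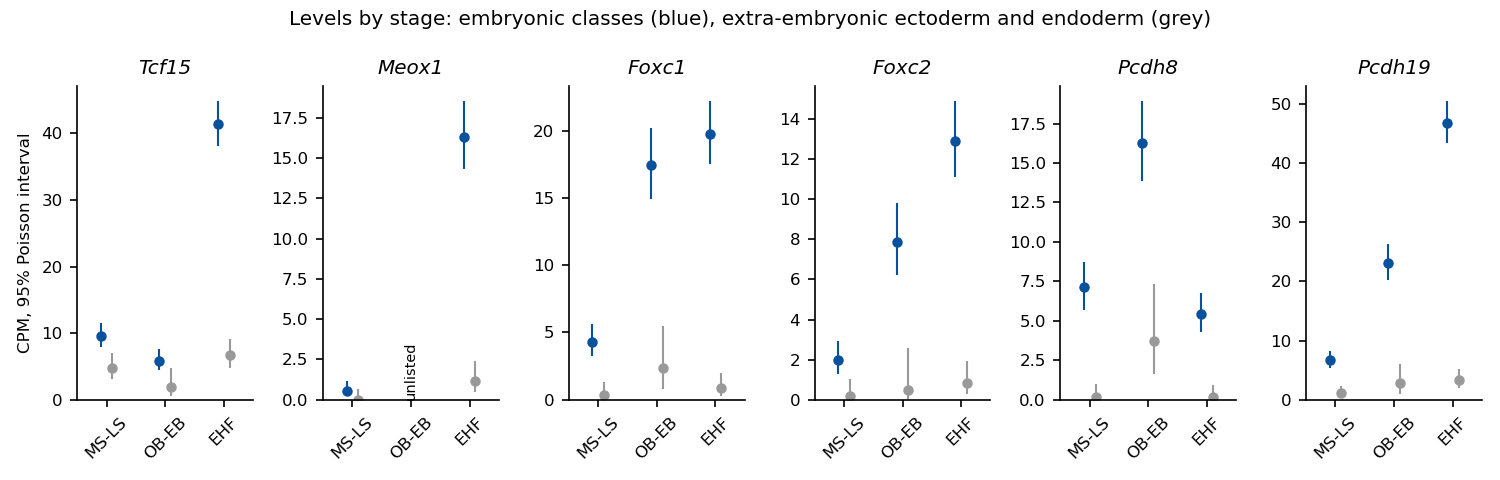
Level of each gene (CPM, 95% Poisson interval) in the extra-embryonic ectoderm and endoderm classes (grey) and in all other classes, called embryonic (blue). Each gene has a separate linear scale over the 3 libraries. *Pcdh8* is highest at OB-EB, *Tcf15* stands at 41.4 CPM at EHF against 5.88 and 9.59 before, and *Meox1* is unlisted at OB-EB.

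At OB-EB the *Foxc* genes and protocadherins were found mostly in nascent mesoderm-like cells, the mesoderm that has just left the streak. This class held 1045 cells (median 2602 UMIs) and 85.0% of the *Foxc1* UMIs. *Foxc1* stood there at 46.9 CPM (39.7 to 54.9), with a UMI in 12.1% of cells, against 0.816% of 245 extra-embryonic (Exe) ectoderm-like cells (median 3035 UMIs), a class outside the mesoderm. *Foxc2* stood at 21.7 CPM (17.0 to 27.4) in nascent mesoderm-like cells, *Pcdh8* at 38.6 CPM (32.1 to 45.9) and *Pcdh19* at 59.4 CPM (51.4 to 68.4). *Pcdh8* and *Pcdh19* had a UMI in 10.1% and 14.6% of these cells, against 1.63% and 2.04% of Exe ectoderm-like cells. The lateral plate and Exe mesoderm-like class of the same library (307 cells, median 2769 UMIs) had lower levels of these 4 genes, 4.95 CPM of *Foxc1*, 4.95 of *Foxc2*, 6.93 of *Pcdh8* and 14.9 of *Pcdh19*.

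The OB-EB nascent mesoderm-like class was made of 3 clusters of 381, 355 and 309 cells (median 2330, 2191 and 4365 UMIs), which were not equal in these genes. In the order given, *Foxc1* stood at 31.7, 50.3 and 55.0 CPM and *Pcdh19* at 28.6, 70.4 and 73.8 CPM. *Pcdh8* stood at 23.5, 46.5 and 44.3 CPM and *Foxc2* at 17.4, 21.4 and 24.8 CPM. The first cluster had the lowest level of each of these 4 genes. *Tcf15*, at 6.13, 11.3 and 4.03 CPM, had another order.

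At MS-LS the nascent mesoderm-like class of 424 cells (median 3435 UMIs) had 7.68 CPM of *Foxc1* (3.97 to 13.4), 5.76 of *Foxc2* (2.64 to 10.9), 20.5 of *Pcdh8* (14.0 to 28.9) and 16.7 of *Pcdh19* (10.9 to 24.4). *Meox1* had no UMI there, which allows up to 1.92 CPM (3 UMIs over the class). Primitive streak-like cells (506) had 8.88 CPM of *Pcdh8*, 6.29 of *Pcdh19* and 3.70 of *Foxc1*. A cluster of 155 cells with deep counts (median 7685 UMIs) scored highest for nascent mesoderm but did not meet the rule for a name. It held 41.1% of the *Foxc1* UMIs of the library, against 21.4% in the named class, and 46.2%, 32.2% and 41.1% of those of *Foxc2*, *Pcdh8* and *Pcdh19*, against 34.6%, 35.6% and 28.9%. *Foxc1* stood there at 18.1 CPM, with 9.42 CPM of *Foxc2*, 22.8 of *Pcdh8* and 29.0 of *Pcdh19*.

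*Tcf15* had another distribution before the headfold stage. At MS-LS its most UMIs, 35.6%, lay in epiblast-like cells, the tissue that has not yet entered the streak, at 12.1 CPM (9.06 to 15.9) and in 5.58% of 879 cells. Exe ectoderm-like cells had 7.52 CPM (4.77 to 11.3) and a UMI in 4.10% of cells (median 4832 UMIs), so the intervals of these classes overlapped. Exe endoderm-like cells (423, median 4925 UMIs) had 1.25 CPM (0.258 to 3.66), an interval below that of epiblast-like cells. In nascent mesoderm-like cells *Tcf15* stood at 8.33 CPM at MS-LS and 6.43 CPM at OB-EB. No class of the early libraries stood apart in *Tcf15* as the paraxial classes did at EHF.

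Between nascent mesoderm-like cells of OB-EB and MS-LS, the log2 ratio was 2.61 (1.76 to 3.59) for *Foxc1*, 1.92 (0.91 to 3.10) for *Foxc2*, 1.84 (1.24 to 2.49) for *Pcdh19*, 0.91 (0.34 to 1.52) for *Pcdh8* and −0.37 (−1.44 to 0.75) for *Tcf15*. Hence 3 of the 5 genes listed in both libraries were higher by 2-fold or more and none was lower by as much, where 10.4% of 8821 genes with at least 20 UMIs were higher and 3.4% lower. The median log2 ratio was 1.84 over the 5 genes and 0.04 over all genes. Thinned to 2000 UMIs per cell, with 20 and 266 shallower cells left out, *Foxc1* had a UMI in 1.49% of MS-LS and 9.24% of OB-EB cells, against 2.83% and 12.1% before thinning, and *Pcdh19* in 3.47% and 10.7%, against 5.43% and 14.6%. By the names of the study's supplement, 227 cells of the MS-LS class were nascent mesoderm and 164 lateral plate and extra-embryonic mesoderm. At OB-EB the latter type had its own class, so the classes compared differed in make-up. *Foxc1* at MS-LS stood at 18.3 CPM in the supplement's nascent mesoderm and 1.06 CPM in its lateral plate and extra-embryonic mesoderm. In the same order, *Foxc2* stood at 9.42 and 3.17 CPM and *Pcdh8* at 29.8 and 5.28 CPM. In the MS-LS class they stood at 5.76 and 20.5 CPM, and at OB-EB at 21.7 and 38.6 CPM. Of the deep unnamed MS-LS cluster, 104 cells were named nascent mesoderm. With this cluster added to the class, the ratio was 1.93 for *Foxc1* and 1.42 for *Pcdh19*. When the 6 genes were let into the clustering, when likely doublets were left out, and with the cell names of the study's supplement for MS-LS, it was 1.38, 1.28 and 1.36 for *Foxc1*, and 0.79, 0.93 and 0.92 for *Pcdh19*, under 2-fold. The count of 3 genes and the median of 1.84 were thus taken only in the classes as first clustered, where *Pcdh19* passed 2-fold.

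At EHF 3 classes held most UMIs of these genes. Presomitic mesoderm-like cells (144, median 4831.5 UMIs) were marked by *Tbx6*, a T-box factor of presomitic cells, at 231.3 CPM, against 23.1 in paraxial and 9.16 in anterior paraxial mesoderm-like cells. Paraxial mesoderm-like cells (89, median 5265 UMIs) had *Ripply2*, a repressor at the forming somite border, at 35.7 CPM, against 9.31 in presomitic and 2.29 in anterior paraxial cells. *Ripply2* rested on 17 UMIs, in 11.2% of the paraxial mesoderm-like cells. Their *Aldh1a2*, which makes retinoic acid, stood at 233.3 CPM, below the 575.7 CPM of the presomitic and above the 16.03 CPM of the anterior paraxial class. Anterior paraxial mesoderm-like cells (147, median 5821 UMIs) had *Alx1*, a homeobox factor of cranial mesenchyme, at 111.0 CPM, against 10.5 and 0 CPM in the paraxial and presomitic classes. Of the other paraxial markers, *Rasgrp3*, *Efnb2* and *Stra6* stood higher in the paraxial than in the presomitic class, and *Pdlim4* and *Hoxb1* lower. *Epha4* stood at 176.5 and 178.2 CPM. The list of 8 paraxial markers summed to 1057 CPM in the paraxial class, with none at 0, and to 1514 CPM in the presomitic class, so these neighbouring classes share markers. Of 8 cardiomyocyte markers, 6 were at 0 in the paraxial class. The paper renamed its own paraxial mesoderm cluster posterior second heart field, a heart progenitor population, by *Aldh1a2* (Raldh2), *Hoxb1* and *Tbx6*. In the paraxial class here *Hoxb1* stood at 182.8 CPM, against 252.6 in the presomitic and 21.75 in the anterior paraxial class. Overlap of this class with the paper's cluster was not tested. The anterior paraxial class also had 5 of 7 pharyngeal mesoderm markers in at least 20% of its cells. Pharyngeal mesoderm was its next best type, with a score of 1.38 against 2.12, and no cluster was named pharyngeal. The anterior paraxial class may thus hold pharyngeal cells.

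These 380 cells were 10.9% of the EHF cells and had 10.3% of the UMIs. They held 77.2% of the *Tcf15* UMIs (492 of 637), 72.7% of those of *Meox1* (176 of 242), 69.3% of *Foxc1* (201 of 290), 72.2% of *Foxc2* (138 of 191), 65.8% of *Pcdh8* (52 of 79) and 58.9% of *Pcdh19* (409 of 695). *Pcdh19* had the lowest share of the 6. In a pool of whole cells, a class share reflects both the number of cells captured and the UMIs of the gene in each.

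*Tcf15* was highest in anterior paraxial mesoderm-like cells, at 350.3 CPM (312.1 to 391.8) and in 69.4% of cells, and in paraxial mesoderm-like cells, at 315.3 CPM (266.8 to 369.9) and in 55.1%. These 2 classes did not differ beyond counting error. Presomitic mesoderm-like cells had 47.9 CPM (33.5 to 66.3) with a UMI in 14.6% of cells, and cardiomyocyte-like cells had 12.5 CPM. Exe ectoderm-like cells, at 7.59 CPM (5.00 to 11.1) and 3.11% of 515 cells (median 6933 UMIs), give the level in a class outside the mesoderm. An unnamed cluster of 183 shallow cells (median 1737 UMIs) had 87.7 CPM (60.0 to 123.8), the highest *Tcf15* level outside the 3 classes. It was led by *Crabp1* and *Ifitm1*, which also lead the paraxial class. Its best scores were for cardiomyocytes and caudal mesoderm, with 0 markers detected, so its type is not known.

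*Meox1* was highest in paraxial mesoderm-like cells, at 142.9 CPM (111.0 to 181.2) and in 39.3% of cells, and in presomitic mesoderm-like cells, at 115.7 CPM (92.7 to 142.7) and in 34.0%. The ratio of these classes had an interval that holds 0. An unnamed cluster of 120 cells led by *T*, *Mixl1* and *Tbx6* followed at 27.4 CPM, which was lower than the presomitic class by a log2 ratio of 2.08 (1.35 to 2.88). Anterior paraxial mesoderm-like cells had 24.04 CPM (14.9 to 36.8) and a UMI in 10.9% of cells, and Exe ectoderm-like cells had 1.69 CPM and 0.777%. *Tcf15* and *Meox1* thus differed in their classes, the former high in the anterior and paraxial classes, the latter in the paraxial and presomitic ones.

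*Foxc1* was high in all 3 classes. It stood at 107.7 CPM (85.5 to 133.9) in presomitic, 100.7 (80.8 to 124.1) in anterior paraxial and 67.3 (46.0 to 94.9) in paraxial mesoderm-like cells, and neighbours in this order did not differ beyond counting error, while the first and last did in this clustering. Cardiomyocyte-like cells followed at 23.6 CPM (13.8 to 37.8) with a UMI in 15.3% of 98 cells (median 6474.5 UMIs), against 0.844 CPM and 0.388% of Exe ectoderm-like cells. Exe mesoderm-like cells (107) had no *Foxc1* UMI, which allows up to 4.06 CPM (3 UMIs over the class).

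*Foxc2* was highest in the paraxial class, at 92.5 CPM (67.2 to 124.1) and in 34.8% of cells, and in the anterior paraxial class, at 75.6 CPM (58.4 to 96.1) and in 36.7%. In presomitic mesoderm-like cells it stood at 37.2 CPM (24.7 to 53.8), below the anterior paraxial class by a log2 ratio of 1.02 (0.36 to 1.71). Endothelium-like cells had 14.5 CPM (6.28 to 28.7) and a UMI in 9.20% of 87 cells, against 0.583% of Exe ectoderm-like cells. The presomitic class had the lowest *Foxc2* level of the 3, while its *Foxc1* level did not differ from that of the anterior paraxial class beyond counting error.

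*Pcdh8* had more of its UMIs in the 3 classes than *Pcdh19*, at 65.8% against 58.9%, from 79 and 695 UMIs. This difference was not tested. *Pcdh8* stood at 63.1 CPM (42.5 to 90.0) in paraxial mesoderm-like cells, with a UMI in 22.5% of them, and at 29.3 CPM (18.3 to 44.3) in presomitic mesoderm-like cells, with 11.1%. None of the 147 anterior paraxial mesoderm-like cells had a UMI, which allows up to 3.43 CPM (3 UMIs over the class). Exe ectoderm-like cells had 0.281 CPM and 0.194%.

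*Pcdh19* stood at 296.5 CPM (258.8 to 338.1) in presomitic and 294.2 (247.5 to 347.2) in paraxial mesoderm-like cells, with a UMI in 72.9% and 65.2% of cells. An unnamed cluster of 153 cells led by *Mesp1* and *Cdx4*, which scored for caudal mesoderm and presomitic mesoderm alike, had 152.6 CPM (128.5 to 179.9). Anterior paraxial mesoderm-like cells had 52.7 CPM (38.6 to 70.2) and 19.7%, and Exe ectoderm-like cells 1.69 CPM and 0.971%. In the anterior class, where *Tcf15* was as high as in the paraxial class within counting error, *Pcdh19* was thus low and *Pcdh8* undetected. After thinning to 2000 UMIs the share for *Pcdh19* was 44.3% in presomitic, 44.2% in paraxial and 9.03% in anterior paraxial mesoderm-like cells.

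**Figure D2:**
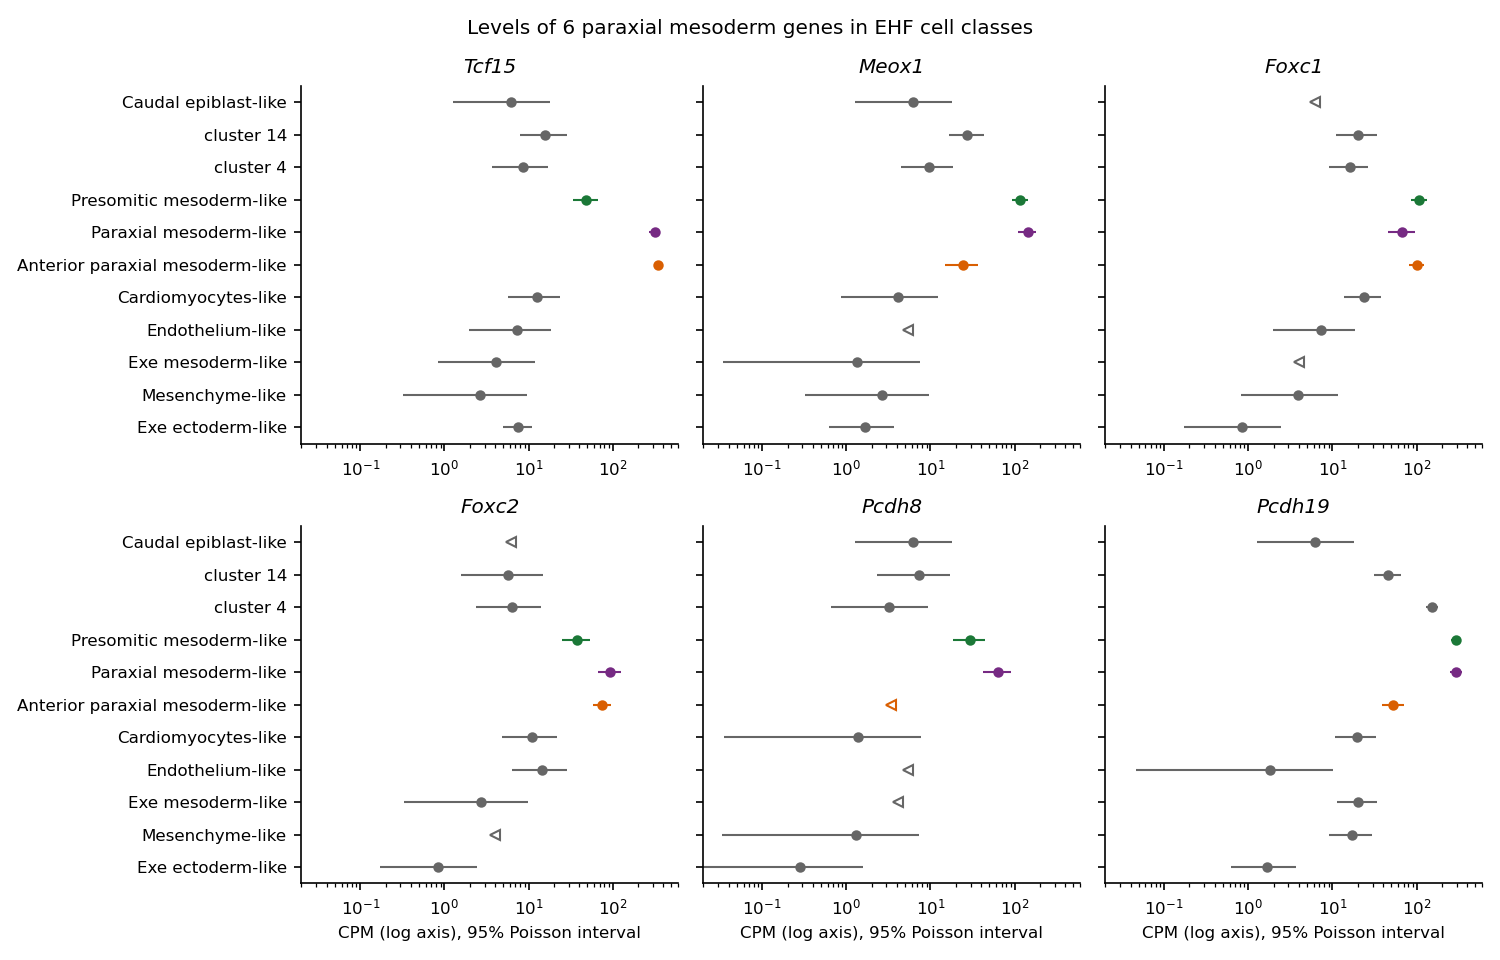
Level of each gene (CPM, log axis, 95% Poisson interval) in EHF cell classes, with presomitic in green, paraxial in purple and anterior paraxial mesoderm-like cells in orange. Open triangles mark the upper limit for a class with no UMI, such as *Pcdh8* in the anterior paraxial class at 3.43 CPM (3 UMIs over the class).

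The differences between neighbouring paraxial classes were taken as log2 ratios of CPM, with intervals from the UMI sums. In paraxial over anterior paraxial mesoderm-like cells, *Meox1* stood at 2.57 (1.85 to 3.35), *Pcdh19* at 2.48 (1.99 to 3.00) and *Pcdh8* at least at 4.20, where the anterior class, without a UMI, was set to the same limit of 3 UMIs. *Foxc2*, *Tcf15* and *Foxc1* had ratios of 0.29 (−0.29 to 0.86), −0.15 (−0.44 to 0.13) and −0.58 (−1.22 to 0.02), whose intervals hold 0. So 3 of the 6 genes were higher by 2-fold or more and none lower, where 3.71% of 6004 genes were higher and 3.33% lower, with a median of 1.39 over the 6 genes and 0.00 over all genes. With Leiden clustering, under which no cluster met the rule for the paraxial name, the highest-scoring cluster had a *Tcf15* ratio of −1.43.

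In presomitic over paraxial mesoderm-like cells, *Tcf15* was lower, at −2.72 (−3.29 to −2.19), as were *Foxc2*, at −1.31 (−2.05 to −0.60), and *Pcdh8*, at −1.11 (−1.97 to −0.27). *Pcdh19* and *Meox1*, at 0.01 (−0.30 to 0.33) and −0.31 (−0.78 to 0.17), had intervals that hold 0. *Foxc1* stood at 0.68 (0.07 to 1.32). With Leiden clustering the *Foxc1* ratio turned to −1.30, and *Pcdh19* and *Meox1* stood at −1.76 and −1.52, past 2-fold lower. None of the 6 genes was higher by 2-fold and 3 were lower, where 4.31% of 5807 genes were higher and 3.22% lower. The *Pcdh8* ratio was −0.07 when cells above the stated mitochondrial limit were left out and the rest clustered again.

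In paraxial over cardiomyocyte-like cells all 6 genes were higher by 2-fold or more, where 3.34% of 5770 genes were higher and 5.1% lower. The ratios were 4.66 (3.69 to 5.81) for *Tcf15*, 5.10 (3.49 to 7.41) for *Meox1*, 1.51 (0.62 to 2.45) for *Foxc1*, 3.06 (1.95 to 4.36) for *Foxc2*, 5.50 (2.92 to 10.85) for *Pcdh8*, from 30 against 1 UMI, and 3.92 (3.12 to 4.83) for *Pcdh19*. *Foxc1* had the smallest ratio, and was the one with a UMI in 15.3% of cardiomyocyte-like cells. The median was 4.29 over the 6 genes and −0.03 over all genes.

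**Figure D3:**
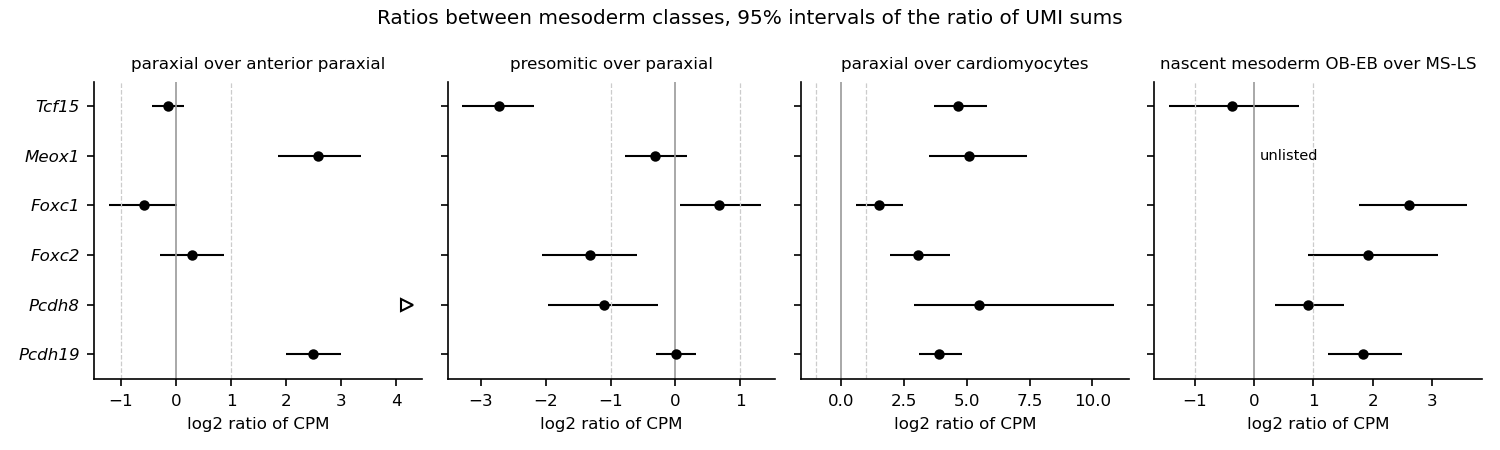
Log2 ratios of CPM with 95% intervals for the 6 genes in 4 comparisons, each with its own horizontal scale. The solid line marks equal levels, the dashed lines 2-fold, and the open triangle the lower bound of *Pcdh8*. *Tcf15* lies at −0.15 in the first panel and −2.72 in the second, and *Pcdh19* at 2.48 and 0.01.

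A list of 21 other paraxial and somite genes gives the surroundings of these ratios. Of 17 listed at EHF, 4 reached 20 UMIs in the paraxial and anterior paraxial classes together, and 1 of them was higher and 2 lower by 2-fold or more, with a median of −0.12. The lower ones, *Eya1* and *Twist1*, had ratios of −1.71 (−4.11 to 0.07) and −1.08 (−2.41 to 0.08), whose intervals hold 0. *Mesp2*, a factor of the forming somite border, had 19 UMIs in the paraxial class and 0 in the anterior class, a ratio of at least 3.54. *Lfng*, a Notch modifier of the segmentation clock, had a ratio of 2.34 (0.58 to 4.44). At the other end, *Pax3*, a factor of the dorsal somite and neural crest, had 1 against 16 UMIs, a ratio of −3.12 (−8.51 to −0.44). Over presomitic and paraxial cells, 1 of the 3 somite genes with 20 UMIs was lower by 2-fold or more and none higher. In nascent mesoderm-like cells, none of 5 was 2-fold higher or lower from MS-LS to OB-EB, with a median of 0.16.

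Of 8 other delta protocadherin genes, 6 were listed at EHF and none reached 20 UMIs in the paraxial and anterior paraxial classes together. *Pcdh18* and *Pcdh7* had ratios of 1.20 (−0.29 to 2.74) and 0.88 there, from 10 and 5 UMIs in the paraxial class. In nascent mesoderm-like cells 3 reached 20 UMIs and 1 was 2-fold higher at OB-EB, with a median of 0.62. *Foxf1*, which lies 28.0 kb from *Foxc2* and acts in lateral mesoderm, was the one of 4 neighbouring forkhead genes with 20 UMIs. It had a ratio of 2.16 (0.81 to 3.67) in paraxial over anterior paraxial cells, where *Foxc2* had 0.29, and of −0.88 (−1.29 to −0.47) in nascent mesoderm-like cells of OB-EB over MS-LS, where *Foxc2* had 1.92.

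Co-detection was counted in EHF cells for the 15 pairs of genes. Over all 3494 cells, every pair was found in the same cell more often than the product of the single shares, by 3.13 times for *Tcf15* and *Pcdh19* (89 cells against 28.4) to 8.84 times for *Meox1* and *Pcdh8* (24 against 2.72). *Tcf15* and *Foxc2* were found together in 79 cells against 11.99 (6.59 times), *Tcf15* and *Meox1* in 62 against 11.9 (5.21 times), and *Foxc1* and *Foxc2* in 49 against 9.70 (5.05 times). Genes of the same classes and deep cells both raise such a figure. With each cell thinned to 2000 UMIs it was 7.32 for *Tcf15* and *Foxc2* and 9.22 for *Meox1* and *Pcdh8*.

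Within the 380 cells of the 3 classes the figures were lower, between 0.898 for *Tcf15* and *Pcdh19* (78 cells against 86.9) and 2.43 for *Meox1* and *Pcdh8* (23 against 9.47). *Pcdh8* and *Pcdh19* gave 1.70, *Foxc2* and *Pcdh8* gave 1.56, and *Tcf15* and *Foxc2* gave 1.43. Each of the 15 pairs had a lower figure here than over all cells. Among the 3114 cells outside the 3 classes the figures lay between 1.20 for *Tcf15* and *Pcdh8* (1 cell against 0.835) and 8.94 for *Meox1* and *Foxc2* (7 against 0.783). *Tcf15* and *Meox1* gave 5.88 there, from 10 cells against 1.70. Within paraxial mesoderm-like cells alone the range was 0.984 for *Tcf15* and *Foxc1* to 1.53 for *Meox1* and *Pcdh8* (12 cells against 7.87), and the latter was 0.430 from 1 cell after thinning to 2000 UMIs. In presomitic mesoderm-like cells, 17 of the 21 cells with *Tcf15* also had *Meox1*, against 7.15 from the product (2.38 times). In anterior paraxial mesoderm-like cells *Foxc1* and *Foxc2* were found together in 22 cells against 22.8.

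**Figure D4:**
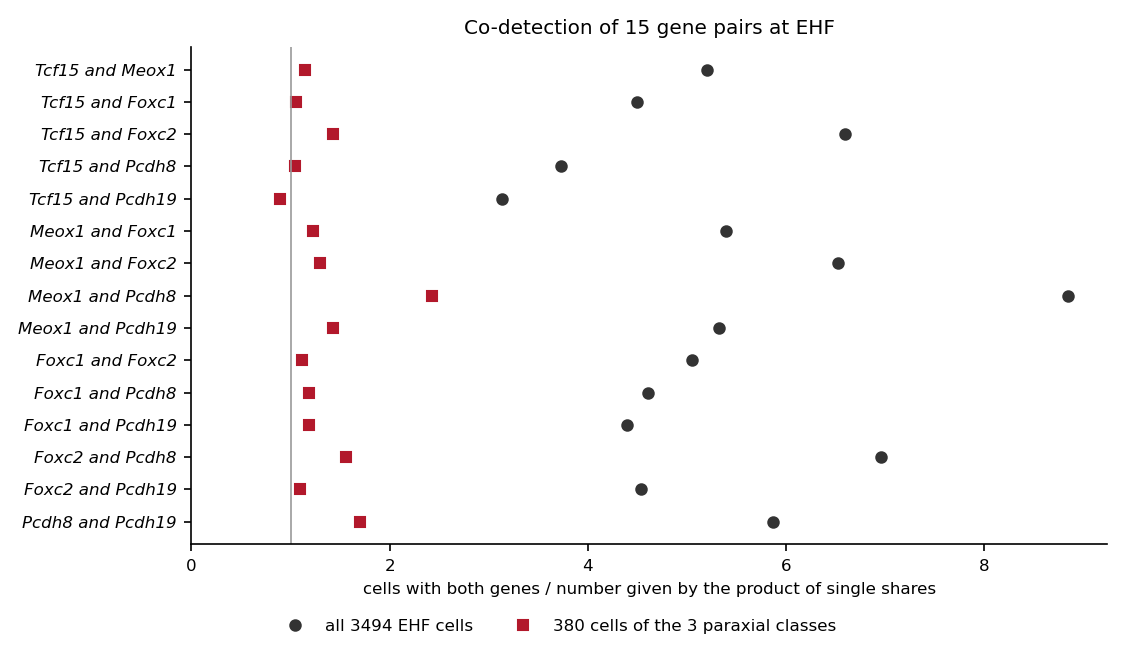
Number of EHF cells with a UMI of both genes, divided by the number given by the product of the single shares, for 15 pairs, in all cells (black) and in the 3 paraxial classes (red). The grey line marks 1, and the pairs lie between 3.13 and 8.84 over all cells and between 0.898 and 2.43 within the classes.

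The number of the 6 genes found in a cell was highest in the paraxial class. Among 89 paraxial mesoderm-like cells, 8 had none, 17 had 1, 20 had 2, 26 had 3, 10 had 4, 6 had 5 and 2 had all 6, so 49.4% had 3 or more. In presomitic and anterior paraxial mesoderm-like cells 27.1% and 25.9% had 3 or more, in cardiomyocyte-like cells 1.02% and in Exe ectoderm-like cells 0.194%. All 6 were found in 6 cells, 2 paraxial and 4 presomitic mesoderm-like, and no anterior paraxial cell could hold all 6, since none had a *Pcdh8* UMI. Thinned to 2000 UMIs, with cells under that depth left out, 20.9% of 86 paraxial, 8.57% of 140 presomitic and 1.39% of 144 anterior paraxial mesoderm-like cells had 3 or more, against 0.0711% of the cells outside the 3 classes. The paraxial class thus had the most genes per cell at both depths.

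**Figure D5:**
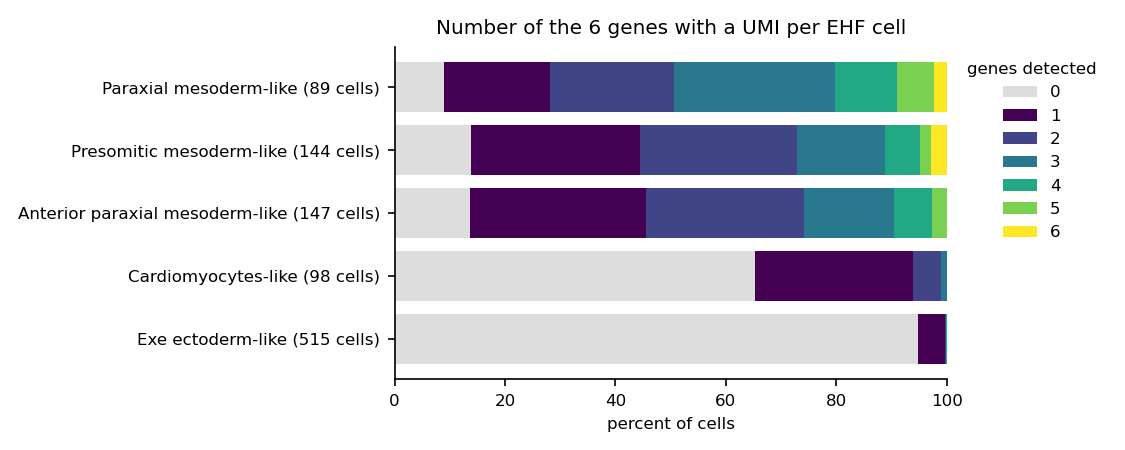
Share of cells (percent) by the number of the 6 genes with a UMI, in 5 EHF classes, with the number of cells in parentheses. In the paraxial class 49.4% of cells had 3 or more genes, and in the Exe ectoderm-like class 0.194%.

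The tdTomato transcript is a low-count readout of cells that made *T* while tamoxifen, given at E7+7h, was active, and of their descendants. It divides each class into cells with and without a UMI of the reporter. In the EHF library 403 cells had such a UMI, 47.2% of presomitic, 42.7% of paraxial and 8.16% of anterior paraxial mesoderm-like cells, against 0.971% of the deeper Exe ectoderm-like cells (median 6933 UMIs). Among paraxial mesoderm-like cells, *Pcdh8* stood at 120.7 CPM in 38 cells with tdTomato (26 UMIs) and 15.4 CPM in 51 without (4 UMIs), a log2 ratio of 2.97 (1.45 to 4.95), while the other 5 genes had ratios whose intervals hold 0. In presomitic mesoderm-like cells, 68 with and 76 without, all 6 intervals hold 0. In anterior paraxial mesoderm-like cells 12 of 147 had tdTomato, too few for a firm comparison of levels. A *Meox1* UMI was found in 3 of the 12 and in 13 of the 135 without. The ratios of *Meox1*, at 2.35 (0.70 to 3.80) from 6 and 15 UMIs, and *Tcf15*, at 0.63 (0.06 to 1.15), had intervals above 0. Those of the *Foxc* genes and *Pcdh19* hold 0, and *Pcdh8* had no UMI. These values rest on 1 library whose cells were not assigned to embryos.

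The genes whose pattern was most like that of each of the 6 were ranked by Pearson's r of log2(CPM + 10) over the 31 EHF clusters, among 9260 genes. These clusters share a library and are not replicates, so r is a description. For *Tcf15* the closest was *Foxc2* (0.884), then *Ptgds* (0.785), *Meox1* (0.769), *Foxc1* (0.748) and *Prrx2* (0.745). *Foxc2* had the same 5 partners with *Tcf15* in its own place, that is *Tcf15*, *Ptgds* (0.871), *Foxc1* (0.862), *Prrx2* (0.820) and *Meox1* (0.813). *Foxc1* was closest to *Foxc2*, followed by *Dact1* (0.844), *Dach1* (0.826), *Tmem132c* (0.825) and *Meox1* (0.824). Each of the *Foxc* genes was thus among the 5 closest of the other.

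*Meox1* was closest to *Aldh1a2* (0.885), *Dach1* (0.872), *Dll3* (0.863), *Arg1* (0.862) and *Foxc1*. *Pcdh8* was closest to *Meox1* (0.854), *Pcdh19* (0.767), *Dach1* (0.757), *Hoxa2* (0.745) and *Aldh1a2* (0.729). *Pcdh19* was closest to *Dach1* (0.840), *Dact1* (0.837), *Ap1s2* (0.830), *Meox1* (0.813) and *Pdzrn3* (0.813). At this pseudocount *Meox1* was among the 5 closest genes of each of the other 5. It left the 5 closest of *Foxc2* and *Pcdh19* at a pseudocount of 1, and of *Tcf15* and *Foxc1* at 50. *Aldh1a2*, *Dll3* and *Tmem132c* also served to name the classes. The lowest r among the 15 pairs was 0.54, of *Tcf15* with *Pcdh8*.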

How the data were processed

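Whole embryos of 3 stages were dissociated and pooled by the authors into 1 Chromium 3′ library per stage. They counted UMIs with Cell Ranger 3.0.2 against GRCm38 with reporter sequences added, kept cells with at least 500 genes and 1000 UMIs under a mitochondrial limit, and deposited raw counts per gene and cell. The 2 EHF tables held equal values in every place, apart from 21 gene names, and were counted as 1 library. All deposited cells were used, 3494 to 3994 per library, and the limits on precision follow from median depths of 2620.5 to 5584 UMIs.

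For cell classes, Seurat 5.3.0 (R 4.3.3) clustered the cells (scale factor 10000, 2000 variable genes, 50 components, resolution 4.5 for EHF and 2 for earlier stages), with the 6 genes, the other listed genes and the reporter held out. A cluster was named after the best of 21 (EHF) or 11 (earlier) marker lists, given 3 detected markers, a margin of 0.2 and leading genes that did not favour another type. CPM carry exact Poisson and shares exact Clopper-Pearson 95% intervals, and ratios the conditional binomial interval of the UMI sums. Genes entered ratio backgrounds with 20 UMIs over both classes, likeness with 100 UMIs in the library. A class with no UMI was set to a floor of 3 UMIs. Each group is 1 library and cells are not replicates, so no p-value was computed. Simulated data for the paraxial over anterior paraxial ratio, with 200 of 6004 genes changed, gave the right direction for 200, and 96.3% of intervals held the true ratio.

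All 6 genes are named. Of the other lists, the genes with the highest and lowest paraxial over anterior paraxial ratio were named, at most 4 a list, and for likeness the 5 genes of highest r. The members and lists were chosen with earlier results of these data known. No doublets were removed. The automatic threshold of Scrublet (scanpy 1.11.5) marked 6, 0 and 13 cells, too few to have worked, and an alternative left out the top 5% of cells by Scrublet score. Other alternatives were other resolutions, Leiden clustering (leidenalg 0.10.2), at least 2000 UMIs, the mitochondrial limit applied again, cells called female by sex-linked genes, the held-out genes allowed, and cell names from the study's supplement for MS-LS. Tables and plots were made with pandas 2.3.3, matplotlib 3.10.9, scipy 1.17.1 and numpy 2.4.6 under Python 3.11.15.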

Additional observations from a re-analysis of the deposited data

How the results depend on the processing

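No paired analysis was possible because each stage is 1 library. The values given here for named genes are log2 ratios. For paraxial over anterior paraxial cells, Leiden clustering, which named no paraxial cluster, gave −1.43 for *Tcf15*, 5.38 for *Meox1*, 0.16 for *Foxc1*, 3.31 for *Pcdh8* and 4.19 for *Pcdh19*. The *Pcdh8* bound was 3.58 at a higher resolution, 3.51 with at least 2000 UMIs, 3.50 under the mitochondrial limit, 3.69 without likely doublets and 4.07 in cells called female, and *Pcdh19* was 3.09 with at least 2000 UMIs. For presomitic over paraxial cells, the mitochondrial limit gave −2.09 for *Tcf15* and −0.074 for *Pcdh8*, and Leiden clustering gave −1.52 for *Meox1*, −2.12 for *Foxc2*, −1.76 for *Pcdh19* and −1.30 for *Foxc1*, the one reversal. For paraxial over cardiomyocyte-like cells, Leiden clustering gave 3.16 for *Tcf15*, and cells called female gave 4.75 for *Foxc2*. For nascent mesoderm-like cells of OB-EB over MS-LS, *Foxc1* was 1.38 with the held-out genes allowed in clustering, 1.28 without likely doublets and 1.36 with the supplement's names, and *Pcdh19* was 0.79, 0.93 and 0.92 in the same order and 1.20 at a higher resolution. The cause of these changes was not tested. The other 25, 30, 34 and 38 ratios computed under alternatives for these comparisons, in the order given, kept their sign where called and moved by less than the counting interval. Of the 5 genes closest to each member, 2 to 4 remained at a pseudocount of 1 and 2 to 5 at 50. Of the co-detection figures under alternatives, 30 moved and 30 stayed the same. Shares of cells over a library moved in 11 and stayed in 1 for EHF, 8 and 4 for MS-LS, and 6 and 4 for OB-EB. Within classes they moved in 10 and stayed in 32 for the paraxial class. For the presomitic and anterior paraxial classes alike, 14 moved and 40 stayed. The addition of the deep MS-LS cluster was chosen after seeing the data. Depth limits *Meox1* at MS-LS, which rests on 7 UMIs, and *Pcdh8* at EHF, which rests on 79.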

Other observations

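In paraxial mesoderm-like cells of EHF, *Mesp2*, a factor of the forming somite border, had a UMI in 13 of 89 cells. All 13 also had a *Pcdh19* UMI, against 8.47 from the product of the single shares, and 7 of them had a *Pcdh8* UMI, against 2.92. The other members of the set were found with *Mesp2* in 8 (*Tcf15*, product 7.16), 6 (*Meox1*, 5.11), 5 (*Foxc1*, 3.51) and 5 cells (*Foxc2*, 4.53). *Prrx2*, a paired-type homeobox gene of mesenchyme, stood at 203.9 CPM in the paraxial, 113.3 in the anterior paraxial and 39.9 in the presomitic class, and the log2 ratio of presomitic over paraxial cells was −2.35 (−3.00 to −1.75). *Notch1* had a ratio of 1.88 (0.86 to 2.96) in paraxial over anterior paraxial cells. These genes were singled out after their values were seen, and the counts describe 1 library.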
